A study of Mus musculus with 6 samples.

Results

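The Notch receptor genes Notch1, Notch2, Notch3 and Notch4, the ligand genes Jag1, Jag2, Dll1 and Dll4 and the target genes Hes1 and Hey1 were read out in hair follicle cells of newborn mice. They were chosen by symbol, and all 10 were among the 24453 gene symbols of the count tables. The series holds 6 RNA-seq libraries of cells sorted from back skin at postnatal day 0. The 3 control libraries (HF_CTL) carry the genotype label Control, and the 3 mutant libraries (HF_I53A) that of Ring1a-/- Ring1b-/I53A. Ring1a and Ring1b are the catalytic subunits of Polycomb repressive complex 1 (PRC1), which places ubiquitin on histone H2A, and I53A is a substitution known to weaken that catalysis in Ring1b. The mutants thus combine loss of Ring1a, 1 null copy of Ring1b and 1 I53A copy, which the comparison cannot separate. The labels name neither the alleles of the control animals nor a Cre driver, nor do they tell whether each library came from its own animal. If not, the p-values measure only the spread between these samples, which may be technical.

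Notch receptors are membrane proteins that bind Jagged or Delta ligands on a neighbouring cell. Binding leads to cleavage by an ADAM protease and then by gamma-secretase, which frees the intracellular domain to enter the nucleus, join Rbpj and a Mastermind protein and switch on genes of the HES and HEY repressor families. In skin the pathway is known for driving basal keratinocytes into the spinous layer and for keeping the lineages of the hair follicle in order.

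Each library held between 14335156 and 18811587 counts, and levels are given as CPM, counts scaled to library depth, where 1 CPM stood for 14.7 to 18.2 reads. A count of 0 allows up to 3 reads, which is 0.164 to 0.204 CPM; such limits cover counting error only, since the amplified reads carry no molecular identifiers. Transcript of Ring1, the gene of Ring1a, was at 16.8, 22.1 and 21.1 CPM in control libraries against 3.23, 7.10 and 4.88 CPM in mutant ones, without overlap (log2 fold change -1.98, SE 0.33, edgeR adjusted p = 0.0113). Rnf2, the gene of Ring1b, was at 59.8 and 67.1 CPM (adjusted p = 0.736), and gene counts do not show its substituted codon. The 10 listed keratinocyte markers, among them Krt5, Krt14 and Epcam, summed to between 14980 and 22870 CPM. The follicle factor Lhx2 was at 224 to 393 CPM, and Ly6a, which encodes the sorting antigen Sca1, at 0.502 to 1.49 CPM. The written sorting scheme covers a Sca1-positive gate for epidermis between follicles, whereas every sample is labelled hair follicle. Of 12 endothelial markers 7 were too low to be tested, and the list summed to 13.4 to 36.2 CPM. Pericyte and smooth muscle markers summed to 137 to 296 CPM, of which Cspg4 alone made 109 to 262 CPM. The 10 fibroblast and dermal papilla markers summed to 589 to 1029 CPM, of which Dcn made 290.5 to 600.1 CPM. Melanocyte and Schwann markers summed to 26.4 to 47.3 CPM and immune markers to 14.2 to 68.8 CPM. The part of such cells in the Notch levels was not tested. In bulk libraries, fewer cells of a type and less RNA per cell cannot be told apart.

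The promoters of the members ranged widely in CG pairs, the feature by which Polycomb complexes are known to find promoters. Shown here are the receptor gene with the most such pairs and the one with the fewest. RefSeq promoter windows (GRCm38.p6) were at hand for 8 of the 10 genes, as 9 windows, with none for Hes1 and Hey1. Each shows the 250 bases before the start, 5′ to 3′ on the gene's strand, with CG pairs in capitals.
Notch2, chr3:98013288-98013537, plus strand: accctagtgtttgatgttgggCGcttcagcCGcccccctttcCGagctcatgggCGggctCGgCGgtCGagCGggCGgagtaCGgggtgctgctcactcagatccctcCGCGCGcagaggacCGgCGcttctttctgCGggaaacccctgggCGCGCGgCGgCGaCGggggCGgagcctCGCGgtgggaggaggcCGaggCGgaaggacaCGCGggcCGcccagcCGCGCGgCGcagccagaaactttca
Notch4, chr17:34564045-34564294, plus strand: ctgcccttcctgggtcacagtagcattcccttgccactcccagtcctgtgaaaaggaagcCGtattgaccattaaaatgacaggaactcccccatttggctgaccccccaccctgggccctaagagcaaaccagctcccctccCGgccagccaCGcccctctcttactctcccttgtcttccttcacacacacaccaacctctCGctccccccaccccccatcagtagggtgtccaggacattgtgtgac
The Notch2 window held 34 CG pairs and that of Notch4 held 4, against a median of 6 over all 32851 windows. Notch1 had 16, Notch3 17, Jag1 20, Jag2 54, Dll4 14 and the windows of Dll1 21 and 13. The windows of Notch1 and Jag2 and one of Dll1 lie wholly inside the gene bounds of GENCODE. The letters TGGGAA, the core of the site of Rbpj, stood on either strand in 0 of the 9 windows and in 21.6% of all windows. CACGAG, a box bound by HES proteins, stood in 1 of the 9, that of Notch3, and in 5.37% of all. CACGTG stood in 0 of the 9 and in 6.02% of all. The motifs do not overlap each other, and these are descriptions of letters in a short window, not of binding.

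Levels between genes were compared per kilobase of merged exon length. In controls Notch1, the main receptor of keratinocyte differentiation in mouse skin, stood highest at 54.1 ± 6.38 CPM per kilobase (SD, n = 3), above every library of the next gene. Notch2 (25.0 ± 7.46), Jag1 (23.4 ± 5.35), Jag2 (22.0 ± 3.02), Hes1 (20.6 ± 8.81) and Notch3 (14.7 ± 2.91 CPM per kilobase) followed, and each of these overlapped its neighbour in the order. Dll1 at 5.01 ± 1.28, Hey1 at 1.24 ± 0.462, and then Notch4 at 0.283 ± 0.322 with Dll4 at 0.133 ± 0.0713 CPM per kilobase were set apart from the genes above them, while Notch4 and Dll4 overlapped each other. In mutants the means ran Notch1 (57.9), Notch2 (33.8), Hes1 (23.4), Jag2 (21.8), Jag1 (20.8), Notch3 (18.4), Dll1 (6.57), Hey1 (1.91), Dll4 (0.364) and Notch4 (0.127 CPM per kilobase). There Notch2 no longer overlapped the gene below it, while Hes1, Jag2, Jag1 and Notch3 overlapped in turn. Of receptors and ligands, the libraries of both genotypes thus carried transcript mainly of 3 receptors and of both Jagged ligands.

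**Figure D1:**
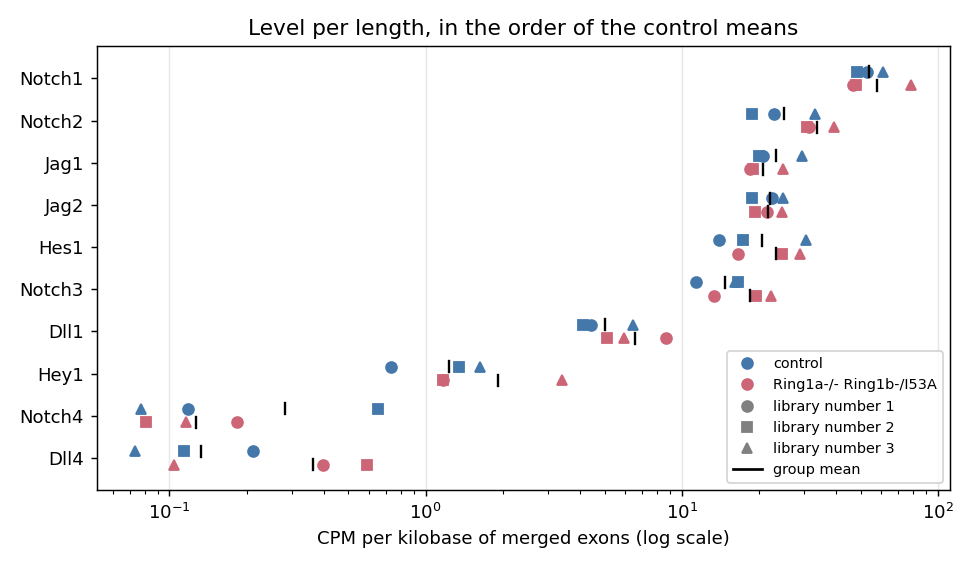
Transcript level of the 10 Notch genes in CPM per kilobase of merged exons (log axis), with 1 point per library, blue for controls and red for mutants, marker shape for the library number and a black line for each group mean. Notch1 lies highest at 54.1 in controls and 57.9 in mutants, and Notch4 and Dll4 lie lowest, under 1 in every library.

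No member passed the test between genotypes: 0 of 10 were called by edgeR at an adjusted p under 0.05, where 3% of the 14345 tested genes were. DESeq2 (which called 6.88% of all genes) and limma-voom (2.96%) also called 0, and 0 of the 10 had an unadjusted p under 0.05, against 14.9% of all genes. With the replicate number as a block, edgeR called 1 member, Notch2, and 9.38% of all genes. This block, here and below, rests on a pairing picked from the same counts and not on the labels. The libraries of the groups overlapped for every member, whereas 21.2% of all tested genes showed no overlap. All 10 passed the filter on low counts. Of the fitted differences 7 were above 0 and 3 below, with a median log2 fold change of 0.25, beside -0.003 over all tested genes. For 7 members the 95% interval of the log2 fold change lay within 1 of 0, so that a 2-fold difference was outside it. Notch4, Dll4 and Hey1, the 3 members with the fewest reads, had wider intervals.

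**Figure D2:**
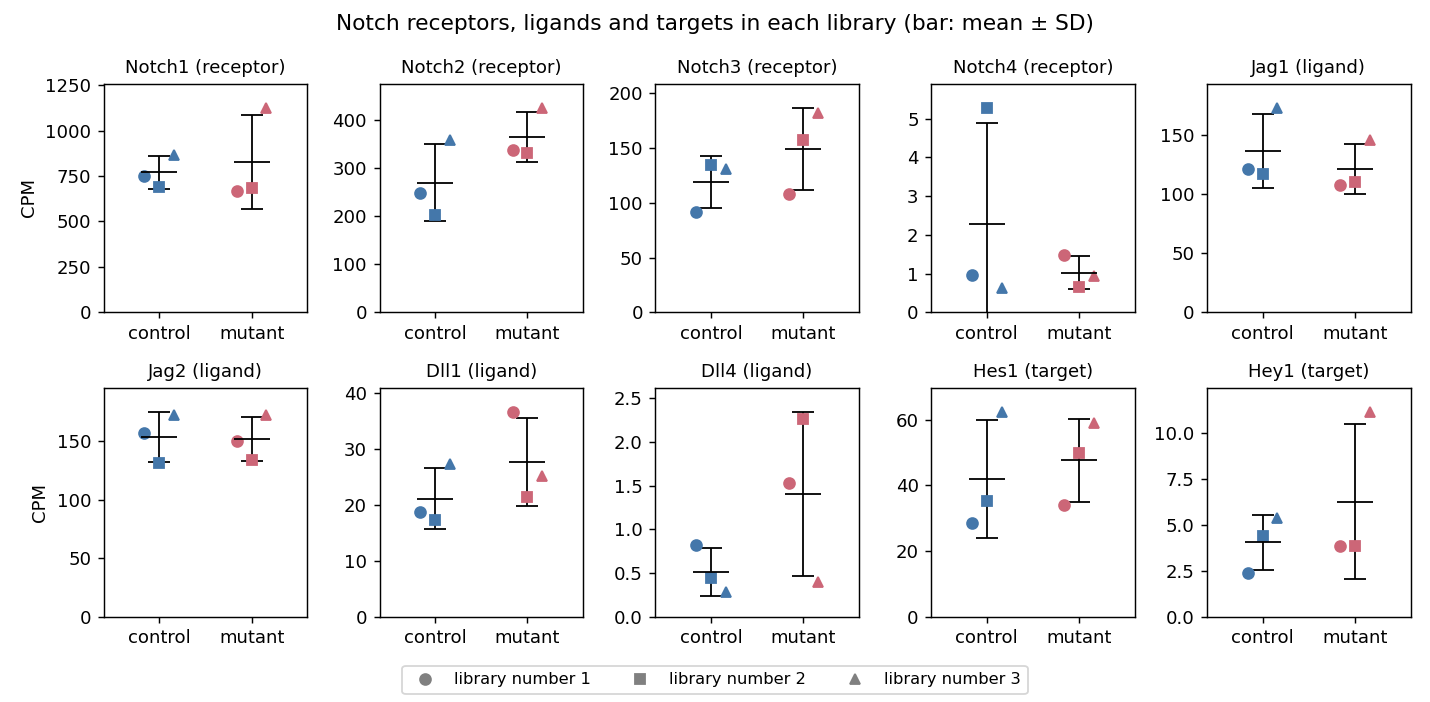
CPM of each member in every library, with points for libraries (shape gives the library number), black lines for the mean and SD of 3 libraries, and axes that start at 0. The groups overlap in all 10 panels, and control 2 stands alone at 5.27 CPM for Notch4.

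Among the receptors, Notch1 (chromosome 2, 26457903 to 26516663, minus strand, GRCm38) was at 752, 689 and 868 CPM in the controls and 666, 685 and 1123 CPM in the mutants. Mutant 3 was the highest of the 6 libraries and the other mutants lay below all controls. This gave a log2 fold change of 0.10 (SE 0.22, 95% interval -0.38 to 0.58, edgeR adjusted p = 0.895), which was -0.19 without mutant 3.

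Notch2 (chromosome 3, 98013527 to 98150361, plus strand), a receptor that acts beside Notch1 in epidermis, had the smallest p of the 10. It was at 248, 202 and 359 CPM in the controls and at 338, 331 and 425 CPM in the mutants. Control 3 lay inside the mutant range, but each mutant library was above the control library of its own number. Control libraries averaged 269.9 ± 80.5 CPM and mutant libraries 364.9 ± 52.2 CPM (SD, n = 3 per group). The log2 fold change of 0.43 (SE 0.22, 95% interval -0.05 to 0.92) did not pass the edgeR test (adjusted p = 0.398). With the replicate number as a block, a pairing picked from these same counts, it passed (log2 fold change 0.47, edgeR adjusted p = 0.0293). Notch2 was the 1 member of 10 that did, in a fit that called 9.38% of all genes and 6.09% upward. The log2 ratios within the same-numbered pairs were 0.45, 0.71 and 0.24. Over the 6 libraries, the tested genes whose log2 CPM followed Notch2 most closely were Ngef, Il4ra and Llgl2 (Pearson r of 0.996, 0.995 and 0.9945), picked from all tested genes, so that values near 1 come with the search.

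Notch3 (chromosome 17, 32120820 to 32166852, minus strand), known from suprabasal keratinocytes and from vascular smooth muscle, was at 92.0, 134 and 131 CPM in the controls and 108, 157 and 181 CPM in the mutants. The highest values were those of mutants 2 and 3, and mutant 1 lay among the controls. Its fitted log2 fold change was 0.32 (SE 0.22, 95% interval -0.18 to 0.82, edgeR adjusted p = 0.573). Within pairs the mutant was higher each time (0.24, 0.23 and 0.47 on the log2 scale), but the fit with the block did not call it (adjusted p = 0.116). The 8 pericyte and smooth muscle markers summed highest in mutant 3 (296 CPM), mostly through Cspg4 (262 CPM there). Without Cspg4, left out after its values were seen, the other 7 summed to 28.4, 31.9 and 42.9 CPM in control libraries against 17.2, 21.3 and 34.6 CPM in mutant ones, highest in control 3. The part of these markers in the Notch3 level was not tested.

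Notch4 (chromosome 17, 34564268 to 34588503, plus strand), the receptor of endothelium, had 14, 84 and 11 reads in control libraries and 27, 11 and 14 in mutant libraries. Scaled to depth this was 0.954, 5.27 and 0.624 CPM for controls and 1.48, 0.656 and 0.936 CPM for mutants. Control 2 held most of the reads. The log2 fold change of -1.15 (SE 0.86, edgeR adjusted p = 0.615) turned to 0.38 without that library. The 12 endothelial markers summed to 13.4 CPM in control 2 and to 15.1 to 36.2 CPM in the other libraries, and Pecam1 was at 5.71 CPM there against 4.06 to 9.16 CPM. Their part in the Notch4 level was not tested. Heyl, a HEY family factor, was also highest in control 2, at 20.5 CPM against 5.56 to 13.7 CPM elsewhere.

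As shares of the summed receptor level per kilobase, Notch1 made 60.5%, 57.3% and 55.2% in control libraries against 51.0%, 48.9% and 56.0% in mutant ones. Notch2 made 26.4%, 22.2% and 30.1% against 34.2%, 31.2% and 28.0%, and Notch3 between 13% and 19.8% in all libraries. The shares of Notch1 and of Notch2 overlapped between the groups, and no test was made on them.

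Among the ligands, Jag1 (chromosome 2, 137081456 to 137116644, minus strand), a Jagged ligand of the follicle, was at 121, 116 and 172 CPM in the controls and at 108, 110 and 145 CPM in the mutants. In each group the library numbered 3 was the highest. The log2 fold change was -0.17 (SE 0.20, 95% interval -0.62 to 0.28, edgeR adjusted p = 0.780), with the mutant lower in each pair (-0.17, -0.08 and -0.25), and it was 0.04 without control 3. Jag2 (chromosome 12, 112907819 to 112929776, minus strand), the Jagged ligand of basal epidermis, was at 157, 131 and 172 CPM against 150, 134 and 172 CPM. Within same-numbered pairs the libraries differed by -0.07, 0.04 and -0.005 on the log2 scale. The log2 fold change of -0.01 had the narrowest interval of the members, -0.39 to 0.36 (SE 0.17, edgeR adjusted p = 0.983).

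Dll1 (chromosome 17, 15367354 to 15376872, minus strand), a Delta ligand of basal keratinocytes, was at 18.7, 17.3 and 27.3 CPM in the controls and at 36.6, 21.5 and 25.1 CPM in the mutants. Mutant 1 was highest, and control 3 lay above mutants 2 and 3. Dll1 differed by a log2 fold change of 0.39 (SE 0.27, 95% interval -0.21 to 0.99, edgeR adjusted p = 0.572). Dll4 (chromosome 2, 119325784 to 119335962, plus strand), the Delta ligand of sprouting vessels, had 12, 7 and 5 reads in control libraries and 28, 38 and 6 in mutant libraries. Scaled to depth this was 0.818, 0.439 and 0.284 CPM for controls and 1.53, 2.27 and 0.401 CPM for mutants. Mutants 1 and 2 were above all controls and mutant 3 was among them. For Dll4 the log2 fold change was 1.45 (SE 0.83, 95% interval -0.41 to 3.31, edgeR adjusted p = 0.480), an interval that holds differences in either direction. Mutant 3, the library with the least Dll4 of the mutants, had the highest sum of endothelial markers, 36.2 CPM, whose part in the Dll4 level was not tested. Gm14207 overlaps Dll4 on the other strand with at most 3 reads per library.

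Jag1 made 43.3% to 48.6% of the summed ligand level per kilobase in the controls and 37.7% to 44.8% in the mutants, and Jag2 made 40.7% to 47.0% and 43.9% to 44.4%. Dll1 made 9.27%, 9.55% and 10.6% in control libraries against 17.7%, 11.6% and 10.7% in mutant ones. Every mutant share of Dll1 lay above every control share, that of mutant 3 (10.7%) only just above that of control 3 (10.6%). These shares were not tested.

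Among the targets, Hes1 (chromosome 16, 30064384 to 30067796, plus strand), a repressor that is the classical readout of Notch signalling, was at 28.4, 35.2 and 62.3 CPM in the controls and at 33.9, 50.0 and 59.0 CPM in the mutants. The spread inside each group was wider than the difference of the means, 42.0 ± 17.9 and 47.7 ± 12.7 CPM (SD, n = 3 per group). Hes1 thus differed by a log2 fold change of 0.18 (SE 0.31, 95% interval -0.52 to 0.88, edgeR adjusted p = 0.860). This was -0.04 without control 1 and -0.008 without mutant 3, but 0.59 without control 3 (edgeR adjusted p = 0.266). Hey1 (chromosome 3, 8663359 to 8667256, minus strand), a HEY repressor known from arteries, had 35, 70 and 94 reads in control libraries and 70, 64 and 166 in mutant libraries. In CPM these were 2.38, 4.39 and 5.34 for controls and 3.84, 3.82 and 11.1 for mutants. Mutant 3 stood above all others and the other mutants lay inside the control range. For Hey1 the log2 fold change was 0.62 (SE 0.52, 95% interval -0.55 to 1.80, edgeR adjusted p = 0.665), and it was -0.08 without mutant 3. The sum of endothelial markers was also highest in mutant 3, at 36.2 CPM against 13.4 to 19.2 CPM in the other libraries, and its part in the Hey1 level was not tested.

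**Figure D3:**
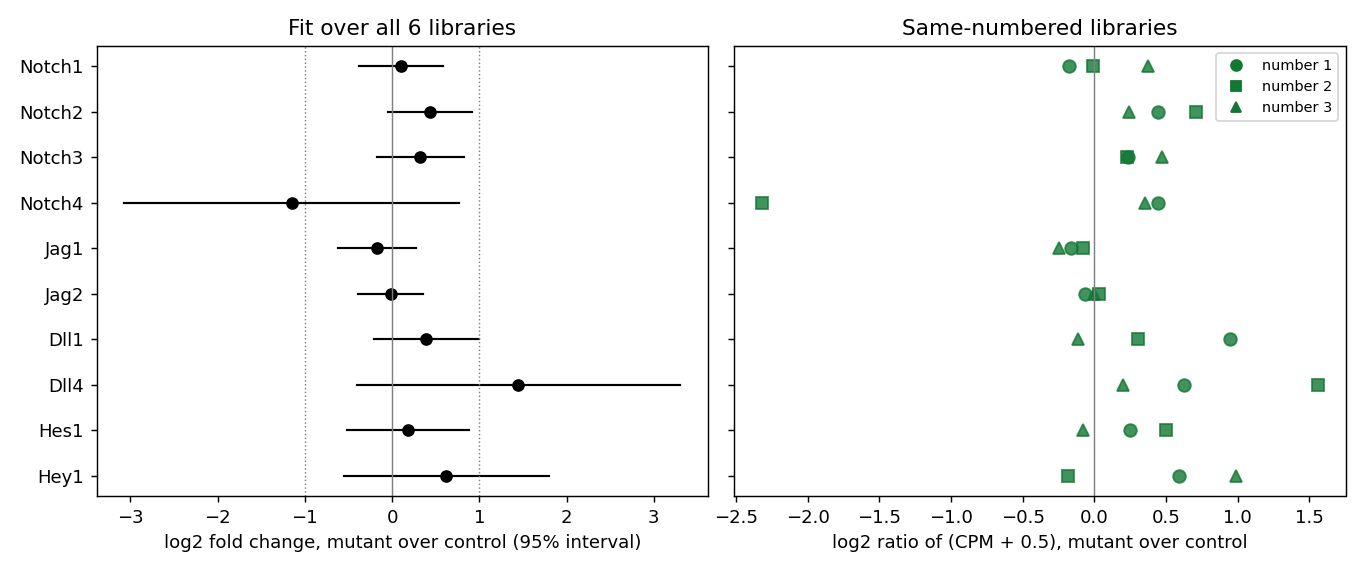
Left, log2 fold change of each member, mutant over control, with its 95% interval from the edgeR fit over 6 libraries and dotted lines at a 2-fold difference. Right, the log2 ratio of CPM + 0.5 between the mutant and control libraries of the same number; Notch2, Notch3 and Dll4 are above 0 and Jag1 below 0 in all 3 pairs.

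Several members varied with the library number in both genotypes. The library numbered 3 was the highest of its group in both genotypes for 6 of the 10 members, namely Notch1, Notch2, Jag1, Jag2, Hes1 and Hey1. How many of all tested genes did so was not counted, so the pattern cannot be called particular to these members. Across tested genes, the deviations of control 3 and mutant 3 correlated at 0.422, the highest of the same-numbered pairs. Itga6, the gene of the sorting antigen α6-integrin, was likewise higher in those libraries, at 980 CPM in control 3 and 1019 CPM in mutant 3 against 560 to 686 CPM in the other 4. Its part in the Notch levels was not tested. Between same-numbered libraries, 3 members were higher in the mutant in every pair, 1 was lower in every pair and 6 were mixed. The share of all tested genes with the same direction in every pair was not counted, so these numbers only describe the members. Across the 6 libraries the closest pair of members by Pearson r of log2 CPM was Notch1 with Hey1 (0.829), and the most opposed was Jag1 with Dll4 (-0.770), as descriptions over libraries that share these number differences.

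For the rest of the pathway, calls are given beside the shares over all tested genes. Of 67 further pathway genes, from ligand ligases to other HES factors, 55 were tested. Of these 2 rose and 0 fell by edgeR (2.59% of all tested genes rose and 0.404% fell). The unadjusted edgeR p was under 0.05 for 8 of the 55, against 14.9% of all tested genes, and the median log2 fold change was 0.10. With the replicate block 5 rose and 2 fell (6.09% and 3.29% of all genes), and DESeq2 called 3 up and 1 down (5.15% and 1.72% of all). Mutant libraries lay above every control for 7 of the 55 and below for 2, beside 12.1% and 9.15% of all tested genes.

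The ligand-like gene Dlk1, which encodes a Delta homologue known as an inhibitor of preadipocyte differentiation, had 53, 90 and 62 reads in control libraries and 190, 295 and 235 in mutant libraries. This was 3.61, 5.65 and 3.52 CPM against 10.4, 17.6 and 15.7 CPM, with every mutant above every control. It rose by a log2 fold change of 1.77 (SE 0.34, edgeR adjusted p = 0.0218). Leaving out single libraries kept the call in 3 of 6 cases and lost it without control 1 (adjusted p = 0.0960), mutant 2 (0.118) or mutant 3 (0.0546). Its relative Dlk2 was at 14.1 ± 11.8 and 17.2 ± 5.18 CPM, and Dll3 and Dner were too low to be tested.

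Dtx4, a Deltex E3 ubiquitin ligase that acts on Notch, was at 5.45, 3.07 and 3.69 CPM in the controls and 13.05, 12.6 and 9.29 CPM in the mutants. All mutants lay above all controls, and it rose by a log2 fold change of 1.52 (SE 0.34, edgeR adjusted p = 0.0445). Leaving out any single library ended the call in all 6 cases (adjusted p 0.0532 to 0.174), and the call was also lost with upper-quartile factors (0.0507). Another Deltex gene, Dtx3, was at 67.4 and 92.7 CPM and did not pass (adjusted p = 0.472). None of the other inhibitors and turnover genes was called by edgeR, among them Numb, Itch, Fbxw7 and Nrarp, itself a Notch target, at 34.5 and 39.8 CPM (adjusted p = 0.704).

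Of the 9 genes of receptor cleavage, none was called by edgeR, beside 3% of all tested genes. Adam10, Adam17 and Ncstn all lay within 0.17 of 0 on the log2 scale. The largest difference was that of Aph1c, a subunit of gamma-secretase, at 5.25, 1.57 and 6.70 CPM in the controls and 15.6, 6.92 and 13.3 CPM in the mutants. It did not pass (log2 fold change 1.40, SE 0.51, edgeR adjusted p = 0.224), but did with the block (adjusted p = 0.0194). Aph1b and Aph1c are close neighbours and relatives, so reads may be split between them. Psenen, another subunit, was at 3.41 and 6.46 CPM (adjusted p = 0.386). Among the glycosylation genes Poglut1, which glucosylates the receptors, was at 50.0 and 36.9 CPM (adjusted p = 0.432) and Rfng, a Fringe, at 13.4 and 15.8 CPM (adjusted p = 0.790). Among the ligand ligases and endocytic adaptors Neurl1b was at 91.9 and 64.4 CPM (adjusted p = 0.555) and Epn2 at 72.3 and 63.5 CPM (adjusted p = 0.697).

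In the nuclear complex, 0 of 15 genes passed by edgeR, beside 3% of all tested genes. Of the 15, 2 had an unadjusted edgeR p under 0.05, against 14.9% of all tested genes. Rbpj, the DNA-binding partner of the receptors, was at 56.9 and 54.2 CPM (edgeR adjusted p = 0.914). Of the co-repressors of the Groucho family, Tle1 was at 55.9, 56.4 and 35.7 CPM in the controls and 26.9, 31.5 and 28.0 CPM in the mutants. All mutants were below all controls, with a log2 fold change of -0.78 (SE 0.22, edgeR adjusted p = 0.109) that passed with the block (0.0308) and with DESeq2 (0.0245). Tle2 lay the other way, at 4.84, 3.70 and 1.08 against 7.78, 8.65 and 7.35 CPM (adjusted p = 0.251).

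Of 8 further HES and HEY genes only Hes6 and Heyl were expressed enough to be tested, and Hes5, a classical target in the nervous system, had 0 to 10 reads per library. Hes6, which is known to antagonise Hes1, had 14, 14 and 31 reads in control libraries and 60, 51 and 58 in mutant libraries. In CPM these were 0.954, 0.879 and 1.76 for controls and 3.29, 3.04 and 3.88 for mutants. The groups did not overlap, but the difference did not pass (log2 fold change 1.496, SE 0.54, edgeR adjusted p = 0.215, and 0.124 with the block). Heyl was at 10.6 CPM in both groups, and its log2 fold change was 0.90 without control 2.

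Of 9 other genes known as Notch targets 7 were tested and none was called by edgeR, beside 3% of all tested genes. Gata3, a factor of the inner root sheath, was at 146, 195 and 219 CPM in the controls and 261, 322 and 294 CPM in the mutants. All mutants were above all controls, with a log2 fold change of 0.65 (SE 0.18, edgeR adjusted p = 0.0996), and the fit with the block called it (adjusted p = 0.00653), as did DESeq2 (0.0453). Of 12 listed markers of hair matrix and inner root sheath, Gata3 among them, edgeR called 0, beside 3% of all tested genes. Their log2 fold changes lay above 0 for 5 and below for 7, with a median of -0.21. Gata3 alone was higher without overlap, and the keratins Krt25 (-2.54) and Krt27 (-1.44) lower, beside 12.1% and 9.15% of all tested genes. The cyclin gene Ccnd1 was at 248, 318 and 267 against 367, 382 and 384 CPM, with an adjusted p of 0.168 by edgeR and 0.0226 with the block. Of the 6 listed suprabasal and spinous markers, whose layer Notch signalling is known to promote, edgeR called 0, beside 3% of all tested genes. For 3 of them (Krt1 and Krt10 below 0, Krtdap above) the unadjusted edgeR p was under 0.05, against 14.9% of all tested genes. In all 4 lay above 0 and 2 below, with a median log2 fold change of 0.55. The spinous keratins Krt1 and Krt10 were at 3358 and 2126 CPM and at 1357 and 981.6 CPM and did not pass (edgeR adjusted p = 0.195 and 0.331). Krtdap, a secreted protein of differentiating keratinocytes, lay the other way, at 169, 196.9 and 243.9 CPM in control libraries against 244.2, 342 and 353.6 CPM in mutant ones. Every mutant was above every control, with a log2 fold change of 0.62 (SE 0.195, edgeR adjusted p = 0.145). Sbsn (0.48), Ivl (1.123) and Lor (0.64) also had log2 fold changes above 0 and did not pass (edgeR adjusted p = 0.533, 0.488 and 0.638). These genes were far lower than Krt1 and Krt10, with control and mutant means of 26.1 and 36.5 CPM for Sbsn. Ivl was at 0.777 and 1.70 CPM and Lor at 4.07 and 6.35 CPM. The median counts each marker alike, whatever its level. With the block Krt1 (adjusted p = 0.00154) and Krtdap (0.00578) were called, in opposite directions, and Krt10 was not (0.0717).

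**Figure D4:**
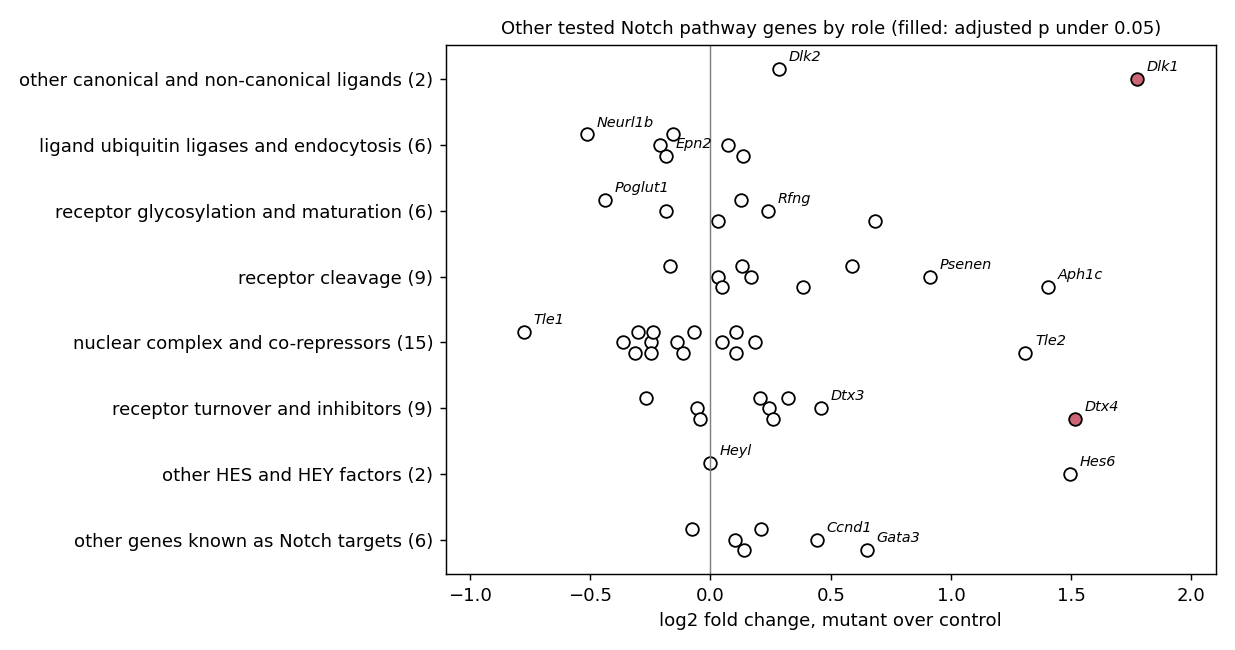
Log2 fold change, mutant over control, of the 55 other tested Notch pathway genes in rows by role, with the number plotted in brackets, filled points for genes with an adjusted p under 0.05 and names for the 2 smallest p of each row (Nrarp, in 2 lists, is drawn once). Dlk1 at 1.77 and Dtx4 at 1.52 are the filled points.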

How the data were processed

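Each deposited file lists raw, whole-number counts of reads for 1 library by gene symbol; the values show no normalization. Per the labels' protocols, the RNA was amplified as cDNA before library construction. Per the submitters' processing notes, the tools were HTSeq 0.6.1, DESeq2 1.6.3, TopHat2 2.0.13 and Cufflinks 2.2.1 on mm10, listed without their roles. Neither strand setting nor annotation is stated there, so overlapping genes on opposite strands cannot be told apart.

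Counts were tested with edgeR 4.0.16 (R 4.3.3): quasi-likelihood test, TMM factors, filterByExpr, group as the only term, two-sided, Benjamini-Hochberg adjustment over 14345 genes, 3 libraries per group. CPM used TMM effective library sizes, and intervals used the SE from the F statistic. Exon lengths and positions came from GENCODE M21 (GRCm38), promoters from RefSeq. The alternatives were DESeq2 1.42.0, limma-voom (limma 3.58.1), other scalings and filters, a replicate block and leaving out each library. In simulated counts for this comparison (14030 genes), 20 of 100 genes changed 2-fold (log2 of 1) and 77 of 100 changed by a log2 of 2 were recovered. There, 11 unchanged genes were also called, and the simulated counts held no differences by library number.

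The labels number the libraries 1 to 3 in both groups. Deviations of same-numbered libraries correlated at 0.214 to 0.422, and those of other pairs at up to 0.117, so the numbers were taken to pair the samples, from the data and not the labels. The fit with the block thus rests on a pairing picked from the same counts, and the main fit did not use it. No 2 libraries agreed within sampling noise (lowest chi-square per degree of freedom 25.1).

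The members and lists were chosen with earlier results of these data known. All 10 members were named, and of the other pathway genes the called ones and the 2 smallest p of each list; further ones are background or named as added. Single values of some listed pathway genes are not reported here, although the genes remain in the counts.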

Additional observations from a re-analysis of the deposited data

How the results depend on the processing

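Of 138 values of the 10 members under the alternatives, 127 kept their direction and side of the threshold, 1 gained a call (Notch2 with the replicate block) and 10 turned their sign, always without a call. Jag2 was 0.031 with library totals only. Without 1 library Notch1 ran from -0.191 to 0.232, Notch4 from -1.585 to 0.381, Jag1 from -0.328 to 0.040, Jag2 from -0.119 to 0.089, Hes1 from -0.035 to 0.592 and Hey1 from -0.083 to 0.888 on the log2 scale. The count of members called was 0 in these fits and under all other alternatives except the block, where it was 1. Of the other pathway genes, Heyl was at 0.027 with library totals only, 0.002 with no filter, 0.007 with the stricter filter, 0.199 with limma-voom and 0.205 with the block. Without 1 library it ran from -0.302 to 0.901, Dlk2 from -0.090 to 1.236 and Rfng from -0.065 to 0.419.

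Pathway genes called numbered 2 (2 up, 0 down), against 4 with DESeq2 (3 up, 1 down), 7 with the replicate block (5 up, 2 down), 3 with library totals only (3 up), 1 with upper-quartile factors (1 up) and 0 to 3 without 1 library (0 to 2 up, 0 to 1 down). Over all genes 430 were called (372 up, 58 down), 986 with DESeq2 (739 and 247), 1345 with the replicate block (873 and 472), 636 with no filter (527 and 109) and 163 to 664 without 1 library (143 to 554 up, 19 to 110 down). The cause of these shifts was not tested. Among the members, the block changed no call other than that of Notch2. Per kilobase of the longest transcript, a length chosen after seeing the data, Notch1 in controls was at 81.1 and Jag2 at 30.1 CPM per kilobase, so that Jag2 then stood above Jag1 (24.3) and Notch2 (25.7). On that length Hes1 also stood above Jag1 and Notch2 in controls. Notch4 (11 to 84 reads per library), Dll4 (5 to 38) and Hey1 (35 to 166) had the fewest reads of the members. How far depth or the spread between libraries made their intervals wide was not tested.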
